A study of Mus musculus with 2 samples.

Results

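Notch receptors, ligands and target genes were examined in mouse embryonic fibroblasts (MEFs) with and without normal levels of the maintenance DNA methyltransferase Dnmt1. The genes are the receptors Notch1, Notch2, Notch3 and Notch4, the ligands Jag1, Jag2 and Dll1, and the targets Hes1, Hey1 and Heyl. They were selected by gene name, and each was found as 1 entry of the deposited expression table, so that they make up 10 of its 29126 entries. The table compares 1 mRNA-seq library of Dnmt1+/+ MEFs with 1 library of Dnmt1-/- MEFs. In the study's description the line called Dnmt1-/- is homozygous for a hypomorphic allele of Dnmt1 and is severely depleted of DNA methylation, and both lines also lack functional Trp53, the gene for p53. Each genotype is represented by a single line of cultured cells, the strain is given as unknown, and no age or treatment is given. With 1 library per genotype there is no spread between replicates, so every value below describes these 2 libraries, no p-value is given, and a difference between genotypes and a difference between the lines cannot be told apart.

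Notch signalling acts between neighbouring cells. A ligand of the Jagged or Delta family on one cell binds a Notch receptor on the next, an ADAM protease and then the gamma-secretase complex cut the receptor, and the freed intracellular domain joins the DNA-binding protein Rbpj and a Mastermind co-activator in the nucleus. There it switches on genes of the Hes and Hey families, which encode basic helix-loop-helix repressors and serve as common readouts of the pathway. In the embryo the pathway sets cell fates in many lineages, among them somites, blood vessels and the nervous system.

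Levels are given as RPKM, the reads on a transcript scaled to its length and to the size of the library. Changes are the difference in log2(RPKM + 0.1) between Dnmt1-/- and Dnmt1+/+, on which scale the change of a gene with low RPKM is understated. An entry was counted as kept when Cuffdiff, the authors' quantification program, gave it the status OK, it carried a gene symbol, and at least one of the libraries had 1 RPKM or more. There were 11244 such entries, and their median change was -0.14. No read counts per gene accompany the values. The study does give the mapped reads of each library, but no counting interval was worked out here. Dnmt1 itself was at 65.2 RPKM in Dnmt1+/+ and 14.5 in Dnmt1-/-. Trp53 RNA was at 18.6 and 19.9 RPKM. Xist and the Y-linked genes also set the lines apart, with Xist at 0.00648 and 37.0 RPKM, while Ddx3y, Eif2s3y and Kdm5d were above 5 RPKM in Dnmt1+/+ and listed at 0 in Dnmt1-/-.

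The fibroblast label was checked against 10 marker genes. Col1a1, Col1a2, Col3a1, Vim, Fn1 and Pdgfrb were each above 30 RPKM in both libraries. In Dnmt1-/- 4 of the 9 fibroblast markers that were kept were more than 2-fold lower, namely Col1a2, Fn1, Thy1 and Postn, and Pdgfra was more than 2-fold higher. Thy1, at 4.84 RPKM in Dnmt1+/+, was at 0.129 in Dnmt1-/-, and Fap was listed at 0 there. The summed level of the fibroblast markers was 6176 RPKM in Dnmt1+/+ and 3727 in Dnmt1-/-. In such bulk libraries, fewer cells of a kind and less RNA per cell cannot be told apart.

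Since the lines differ in a DNA methyltransferase, whose substrate is the CpG dinucleotide, the CpG content of the members' promoters is shown before their RNA levels. RefSeq promoter sequences, each of 300 bases from 250 before to 50 after a transcription start, were found for 7 of the 10 members: Notch1, Notch2, Notch3, Notch4, Jag1, Jag2 and Dll1, the last with 2 starts. They were taken from a table of build GRCm38.p6, and each matched 1 place in the NCBI37 (mm9) genome exactly. Coordinates are given in NCBI37. The 3 printed below are those of Jag2, the ligand with the higher value in Dnmt1-/-, of Dll1, a ligand with the lower value, and of Notch4, the receptor with almost no RNA in either library. Each is written 5′ to 3′ on the strand of the gene, with every CpG in capitals.
Jag2, minus strand, chr12:114167657-114167956: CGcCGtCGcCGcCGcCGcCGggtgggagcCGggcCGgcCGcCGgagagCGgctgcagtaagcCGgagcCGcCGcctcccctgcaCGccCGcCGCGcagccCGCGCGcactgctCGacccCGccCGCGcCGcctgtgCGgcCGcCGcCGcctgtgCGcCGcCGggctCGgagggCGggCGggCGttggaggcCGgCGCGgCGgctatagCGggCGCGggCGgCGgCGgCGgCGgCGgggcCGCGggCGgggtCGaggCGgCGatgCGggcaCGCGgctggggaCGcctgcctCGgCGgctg
Dll1, minus strand, chr17:15512738-15513037: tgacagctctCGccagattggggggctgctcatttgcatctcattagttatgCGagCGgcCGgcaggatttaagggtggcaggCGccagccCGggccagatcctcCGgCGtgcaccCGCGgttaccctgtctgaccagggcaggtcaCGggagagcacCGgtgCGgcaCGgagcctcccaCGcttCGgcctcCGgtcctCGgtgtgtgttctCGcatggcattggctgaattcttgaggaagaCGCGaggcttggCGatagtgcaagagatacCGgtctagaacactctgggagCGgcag
Notch4, plus strand, chr17:34700990-34701289: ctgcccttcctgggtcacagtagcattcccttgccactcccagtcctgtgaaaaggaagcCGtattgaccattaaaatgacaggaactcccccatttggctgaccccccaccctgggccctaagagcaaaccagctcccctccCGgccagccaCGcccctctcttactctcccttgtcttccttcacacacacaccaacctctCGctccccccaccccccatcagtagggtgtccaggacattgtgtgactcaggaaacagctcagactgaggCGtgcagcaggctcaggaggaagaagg

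The Jag2 promoter held 63 CpGs. Of the 32851 promoters of the same length in RefSeq, 99.97% held fewer, and their median was 7. Notch2 followed with 41. Notch3 held 25, the Dll1 promoter printed 24, Notch1 23 and Jag1 22. Counted from the start of the annotated gene, the printed Dll1 start lies at 1049 bases, inside the gene. The other Dll1 start lies at -60 bases and had 15. Of the members found, Notch4 alone was below the median, at 5 CpGs. Each of these receptor and ligand promoters other than that of Notch4 thus lay above the median CpG count. Methylation of these sequences was not analysed here, so the counts describe the sequence only.

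Of the 10 members, 5 were kept, namely Notch1, Notch2, Notch3, Jag1 and Hes1. None of these 5 differed by more than 2-fold between the libraries. Among all kept entries a difference past 2-fold was found for 19.4%, with 8.47% higher and 10.9% lower in Dnmt1-/-. The changes of the 5 ran from -0.63 to 0.38, with 3 above 0 and 2 below, and their median was 0.28. Over all 10 members, whatever their level or status, the median was -0.19. The members with differences past 2-fold on the log2(RPKM + 0.1) scale were all under 1 RPKM in both libraries: Jag2 was higher in Dnmt1-/-, and Dll1 and Hey1 were lower. The remaining members, Notch4 and Heyl, were close to 0 in both.

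**Figure D1:**
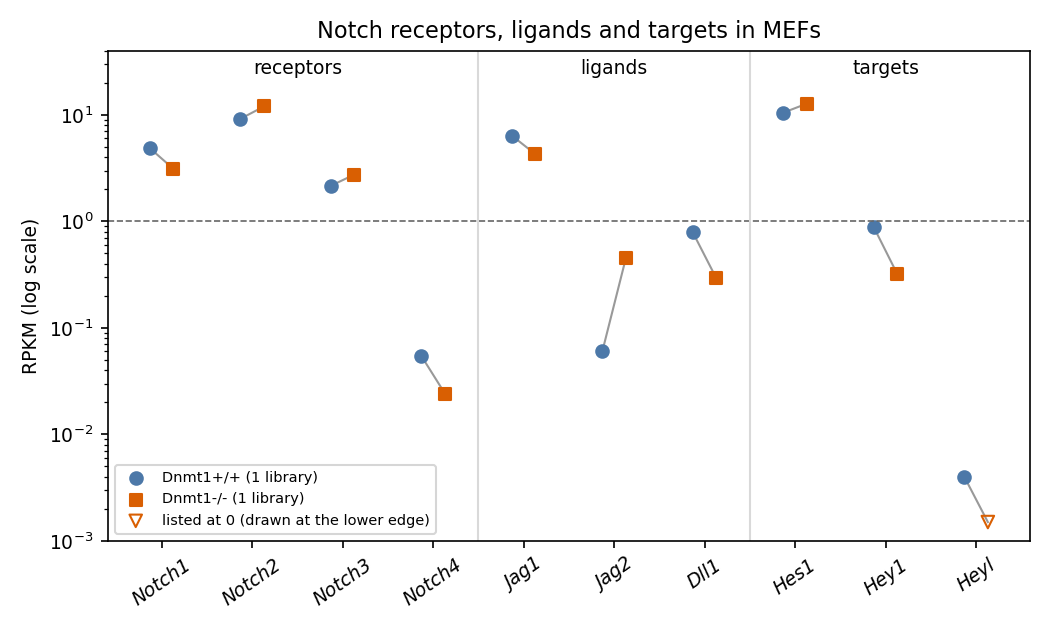
RPKM of the 10 members (log axis) in the Dnmt1+/+ library (circles) and the Dnmt1-/- library (squares), 1 library each, with the 2 values of a gene joined by a line. The dashed line marks 1 RPKM, and the 5 members above it are within 2-fold, while Jag2 is at 0.0603 and 0.452 and Dll1 and Hey1 are below 0.35 in Dnmt1-/-.

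The receptors were led by Notch2, a widely expressed receptor, which was at 9.18 RPKM in Dnmt1+/+ and 12.0 in Dnmt1-/-. Its value was 1.31 times as high in Dnmt1-/-, a change of 0.38. Notch1, the receptor best known from T cell and vascular development, was at 4.86 RPKM in Dnmt1+/+ and 3.11 in Dnmt1-/-, a change of -0.63. Notch3, a receptor of vascular smooth muscle and pericytes, was at 2.16 and 2.75 RPKM, a change of 0.34. Notch4, a receptor found mainly in endothelium, was at 0.0544 and 0.0242 RPKM, a change of -0.31 on a scale that compresses such low values, while the plain ratio was 2.25-fold lower in Dnmt1-/-. Notch2 and Notch3 were thus higher and Notch1 and Notch4 lower in Dnmt1-/-, and the kept receptors lay at the 80.0, 78.3 and 21.8 percentiles of change for Notch2, Notch3 and Notch1. The middle 50% of kept entries changed between -0.56 and 0.27, so each of these 3 fell just outside that range.

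Summed over the receptors the level was 16.3 RPKM in Dnmt1+/+ and 17.9 in Dnmt1-/-, a ratio of 1.10. Within the sum the share of Notch2 was 56.5% in Dnmt1+/+ and 67.1% in Dnmt1-/-. Notch1 made up 29.9% and 17.4%, and Notch3 13.3% and 15.4%. The summed receptor RNA was therefore close in the libraries, with a larger part of it from Notch2 and a smaller part from Notch1 in Dnmt1-/-.

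Among the ligands Jag1 was the most abundant in both libraries. Its level was 6.38 RPKM in Dnmt1+/+ and 4.27 in Dnmt1-/-, a change of -0.57. Dll1, a Delta ligand that acts in somite formation, was at 0.786 and 0.291 RPKM. The Dll1 value in Dnmt1-/- was 2.70-fold lower, and the change was -1.18. Jag2, a ligand needed in limb and craniofacial development, went the other way, from 0.0603 RPKM in Dnmt1+/+ to 0.452 in Dnmt1-/-. This was 7.50 times as high, and the change of 1.78 was the largest of the 10 members on the log2(RPKM + 0.1) scale. With a pseudocount of 1 it was 0.45, and that of Notch1 was -0.51. That setting holds any gene under 1 RPKM in both libraries within 2-fold. Jag2 remained below 1 RPKM in each library, and its level in Dnmt1-/- was under that of Jag1 in the same library.

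The ligands summed to 7.23 RPKM in Dnmt1+/+ and 5.02 in Dnmt1-/-, a ratio of 0.694. Jag1 accounted for 88.3% of this sum in Dnmt1+/+ and 85.2% in Dnmt1-/-. Jag2 had a share of 0.834% in Dnmt1+/+ and 9.01% in Dnmt1-/-, while that of Dll1 was 10.9% and 5.81%. In Dnmt1+/+ Dll1 was the second ligand by level, and in Dnmt1-/- Jag2 was.

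**Figure D2:**
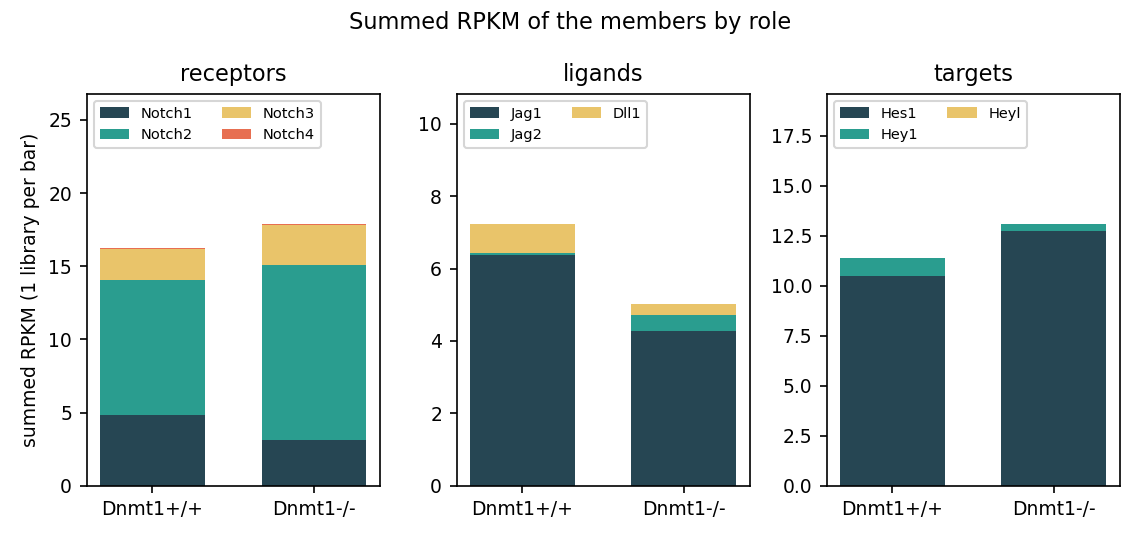
Summed RPKM of the 4 receptors, 3 ligands and 3 targets in each library, 1 library per bar, with each gene as a coloured segment. The receptor bars are 16.3 and 17.9 RPKM high and the ligand bars 7.23 and 5.02, with Notch2, Jag1 and Hes1 the largest segment in both libraries.

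The targets were led by Hes1, a repressor that is induced by Notch and also by other signals. Hes1 was at 10.5 RPKM in Dnmt1+/+ and 12.8 in Dnmt1-/-, a change of 0.28, and it was the highest of the 10 members in both libraries. Hey1, which encodes a repressor that acts in vascular and cardiac development, was at 0.880 and 0.319 RPKM. It was 2.76-fold lower in Dnmt1-/-, with a change of -1.23. Heyl, a Hey relative found in smooth muscle, was at 0.00399 RPKM in Dnmt1+/+ and listed at 0 in Dnmt1-/-, and its status was NOTEST, so no fold is given. The abundant target was thus slightly higher in Dnmt1-/- while the scarce one was lower.

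Of the 4 members that had status OK and stayed under 1 RPKM in both libraries, Jag2 was past 2-fold upwards and Dll1 and Hey1 downwards in Dnmt1-/-. Among the 3030 entries with a symbol and status OK in that range, above 0 in at least one library, the shares were 17.3% and 14.2%, or 31.5% in either direction. With the filter on RPKM left out altogether, these 3 were the calls among the 9 members with status OK, and 9.92% of the 14865 entries with a symbol and that status were past 2-fold upwards and 11.1% downwards, 21.1% together. Changes past 2-fold were therefore more common among low entries in general than among the kept ones. The order of the members by RPKM had Hes1 first in both libraries, followed by Notch2, Jag1, Notch1 and Notch3. Below these 5 came Hey1, Dll1 and Jag2 in Dnmt1+/+ and Jag2, Hey1 and Dll1 in Dnmt1-/-, and then Notch4 and Heyl in both. Whether neighbours in this order differ beyond the spread between samples cannot be told from 1 library each.

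**Figure D3:**
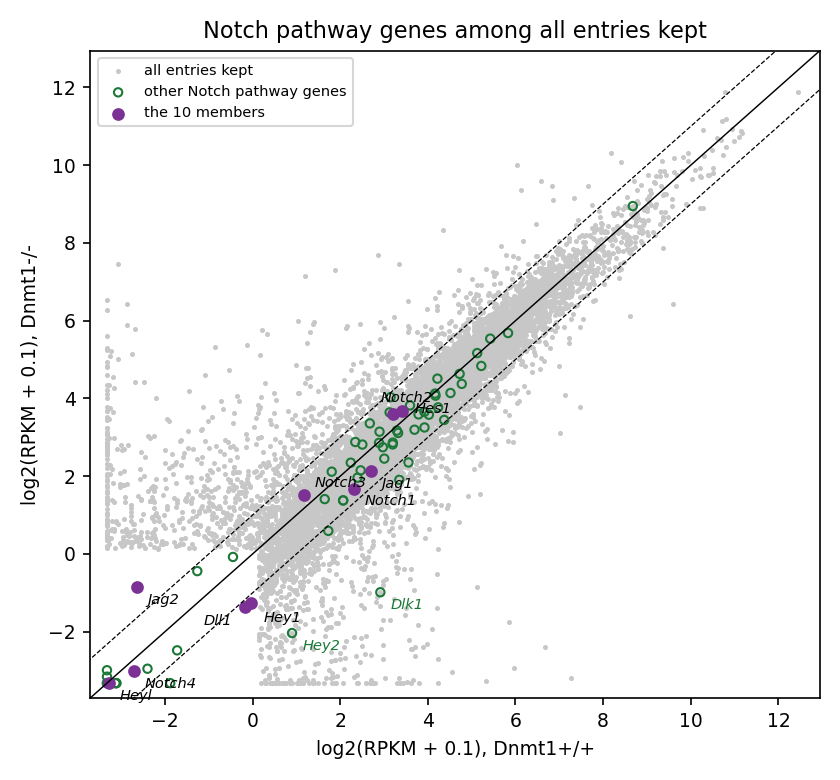
Level of each kept entry in Dnmt1-/- against Dnmt1+/+ on the log2(RPKM + 0.1) scale (grey), with the 10 members (filled purple) and other Notch pathway genes (open green). The solid line marks equal values and the dashed lines 2-fold; the 5 kept members lie between the dashed lines, and Jag2, Dll1 and Hey1 lie outside them at the low end.

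The rest of the pathway was described from a list of 55 further genes, which matched 55 entries, as Aph1b and Aph1c share one and Fbxw7 has 2. Of these entries 43 were kept. None was more than 2-fold higher and 5 were lower by more than 2-fold, namely Dlk1, Hey2, Cir1, Mib2 and Maml3, where the background is 8.47% and 10.9% of all kept entries. The median change of the 43 was -0.23, beside -0.14 for all kept entries. Of the 12 entries not kept, 5 had status OK, and of these Dner alone was past 2-fold on the log2(RPKM + 0.1) scale, at 0.172 RPKM in Dnmt1+/+ and listed at 0 in Dnmt1-/-. On that scale 31.5% of all low entries with a symbol and status OK, above 0 in at least one library, were past 2-fold. By the plain ratio of RPKM values, Hes7 (2.56-fold lower), Nrarp (3.07-fold lower) and Neurl1a (2.01 times as high) were past 2-fold as well. The share of all low entries past 2-fold by plain ratio was not worked out. These plain ratios and that of Notch4 therefore have no background to be read against.

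Hey2, the third gene of the Hey family, was at 1.77 RPKM in Dnmt1+/+ and 0.144 in Dnmt1-/-, a change of -2.93. Of the 3 Hey genes, Hey2 alone was kept. Hey1 was also lower in Dnmt1-/- but under 1 RPKM in both libraries, and Heyl, with status NOTEST, was close to 0 in both. Of the Hes family, Hes6 was at 9.90 and 8.55 RPKM, Hes7 at 0.203 and 0.0795, and Hes2, Hes3 and Hes5 were under 0.03 in both. Nrarp, a feedback inhibitor induced by Notch, was at 0.0898 and 0.0293 RPKM. Dtx1, another gene induced by Notch, had no listed signal, at 0 RPKM in each library.

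The remaining Delta ligands had almost no RNA, with Dll3 at 0.0161 and Dll4 at 0.0142 RPKM in Dnmt1+/+ and both listed at 0 in Dnmt1-/-. Dlk1, an imprinted gene for a Delta-like protein that lacks the receptor-binding domain of the classical ligands, was at 7.45 RPKM in Dnmt1+/+ and 0.405 in Dnmt1-/-, a change of -3.90. Its relative Dlk2 was at 8.78 and 16.3 RPKM, a change of 0.88. Dlk1 and Dlk2 thus differed in opposite directions.

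The genes for the proteins that carry the signal in the nucleus and cut the receptors came next. Rbpj, the DNA-binding partner of the receptor's intracellular domain, was at 18.0 RPKM in Dnmt1+/+ and 16.7 in Dnmt1-/-. Of the Mastermind co-activators, Maml1 was at 9.07 and 6.95 RPKM, Maml2 at 6.29 and 10.2, and Maml3 at 3.21 and 1.41, a change of -1.13. Cir1, a co-repressor that binds Rbpj, was at 10.1 and 3.65 RPKM, a change of -1.44. Of the 12 nuclear factors and co-repressors listed, the other 10 stayed within 2-fold. All 9 entries for the proteases that cut the receptors were kept and stayed within 2-fold. They include Adam10 at 34.8 and 35.8 RPKM, and, of gamma-secretase, Ncstn at 26.4 and 24.7 and Aph1a at 22.8 and 17.5.

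Of the Fringe enzymes, which add sugars that tune a receptor's choice of ligand, Lfng was at 3.40 and 4.24 RPKM and Rfng at 12.9 and 9.06, while Mfng stood at 0 in each library. Of the genes for ligand endocytosis, Mib1 was at 18.7 and 13.6 RPKM. Mib2 was at 11.7 and 5.01 RPKM, a change of -1.20. All 10 entries for receptor turnover stayed within 2-fold, with Itch, an E3 ligase that acts on Notch, nearest to the threshold at 20.6 and 10.8 RPKM.

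**Figure D4:**
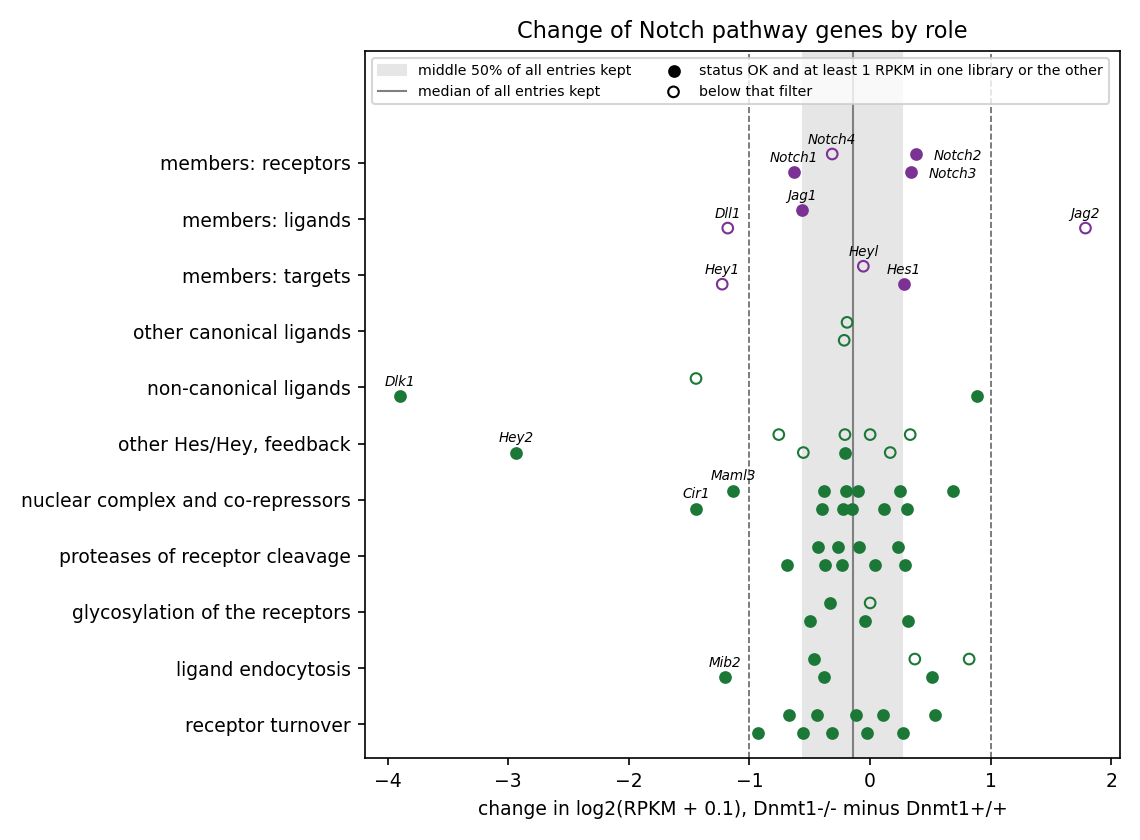
Change in log2(RPKM + 0.1) from Dnmt1+/+ to Dnmt1-/- for the members (purple) and the other pathway genes (green), grouped by role; filled points are entries kept and open points are not. The grey band is the middle 50% of all kept entries (-0.56 to 0.27), the dashed lines mark 2-fold, and the named green points are the 5 kept pathway genes below the left dashed line.

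Several members are known from other cell types, so markers of these were read in the same libraries. Of the 8 endothelial markers, which bear on Notch4, Dll4 and the Hey genes, none was listed at 1 RPKM or more in either library. They summed to 0.512 RPKM in Dnmt1+/+ and 0.711 in Dnmt1-/-. Tie1 was listed at 0 in both, and Tek and Emcn were listed at 0 in Dnmt1-/-. Eng was also listed at 0 in both, but with the status FAIL, so its 0 in these sums is not taken as a measured level. Smooth muscle markers, which bear on Notch3 and Heyl, summed to 2056 RPKM in Dnmt1+/+ and 2144 in Dnmt1-/- over 7 entries. Most of each sum came from Acta2 and from Tagln, the latter at 529 and 586 RPKM. Of the 5 kept, Smtn and 1 of the 2 Cnn1 entries were more than 2-fold higher in Dnmt1-/-. Smtn was at 19.6 RPKM in Dnmt1+/+ and 56.9 in Dnmt1-/-. Acta2, at 1435 and 1348 RPKM, was the 1 kept entry with a lower value. Des, which was not kept, was also lower, at 0.318 and 0.0780 RPKM. Myh11 was not kept either, at 0.312 RPKM in Dnmt1+/+ and 0.594 in Dnmt1-/-. Pericyte markers summed to 21.0 and 21.2 RPKM, with Mcam at 15.2 and 9.90, Cspg4 at 4.35 and 10.9, and Anpep at 1.49 and 0.221. Rgs5 was listed at 0 and at 0.162, and Kcnj8 and Abcc9 at 0 in both libraries. The part of smooth muscle and pericyte genes in the Notch3 values was not tested.

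Myoblast markers summed to 12.0 RPKM in Dnmt1+/+ and 12.8 in Dnmt1-/-, with Pax3 at 11.9 and 8.58 and Myf5 at 0.106 and 3.28. Cdh15 was at 0.0289 and 0.869 RPKM, and Myod1 and Myog were close to 0 in both libraries. Pax7 was listed at 0 in both. Neural and neural crest markers summed to 67.5 and 139.3 RPKM, most of it from Nes, which was more than 2-fold higher in Dnmt1-/-. Foxd3 was at 0 in each library. Epithelial markers, 5 of 6 found, summed to 7.19 and 1.06 RPKM, with Krt19 at 6.90 and 0.326, Krt18 at 0.0358 and 0.441, and Krt8 listed at 0 and at 0.216. Blood markers, 4 of 6 found, summed to 0.611 and 3.67 RPKM, almost all from Cd68, and Ptprc and Emr1 were listed at 0. The part of these differences in the values of the Notch genes was not tested.

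Positions of the members were taken from the GENCODE vM1 annotation of NCBI37. Jag2 lies on the minus strand at chr12:114146801-114167706, Dll1 on the minus strand at chr17:15504318-15513836, and Hey1 on the minus strand at chr3:8663362-8667039. Jag2 and Hey1 overlap no other annotated gene. Dll1, Notch1 and Notch3 each overlap at least one annotated lincRNA on the opposite strand, and Notch4 overlaps a pseudogene on the opposite strand. The libraries were strand-specific, but whether strand was used in the quantification is not given in the sources used here, so the values of these 4 genes may include reads from the overlapping transcript.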

How the data were processed

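Strand-specific mRNA-seq libraries, 1 per genotype, were sequenced as single-end reads. Alignment by the authors was to mm9 using TopHat, and transcript assembly used Cufflinks. The deposited RPKM values, 1 column for each library, came from Cuffdiff; program versions and any further scaling of the libraries are not given in the sources used here. The study gives the mapped reads of each library, but no counts per gene were available.

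Here log2(RPKM + 0.1) was taken and the Dnmt1+/+ value subtracted from the Dnmt1-/- value. Entries were kept with status OK, a symbol and at least 1 RPKM in one library or the other, and a 2-fold threshold was used without a test, as there are no replicates. Members were entries whose symbols, split on commas, held one of the 10 names. All members are named, and of the other pathway genes those past 2-fold and those needed to describe each role. One gene of that list is not reported here. Members and gene lists were chosen with earlier results of these data known. The code for the calls was checked on simulated data, with changes set well past the threshold in entries above the RPKM minimum. This check does not bear on members under that minimum or on the spread between libraries. Alternatives were pseudocounts of 1 and 0.01, no filter, a mean RPKM of at least 1, subtraction of the median change, and a 1.5-fold threshold. Locus starts in the table count from 0, so positions were taken from the GENCODE annotation. Python 3.11.15, numpy 2.4.6, pandas 2.3.3 and matplotlib 3.10.9 were used.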

Additional observations from a re-analysis of the deposited data

How the results depend on the processing

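With 1 library per genotype no replicate could be left out, and no test was made. No paired analysis was possible because each genotype has 1 library. Among kept members, the numbers more than 2-fold higher and lower, 0 and 0, were the same with either other pseudocount, with a mean RPKM of at least 1 and after subtraction of the median change. Without the filter on low RPKM, 9 members could be counted, 1 higher and 2 lower, and their median change was -0.31 in place of 0.28, as the low members were added. With a 1.5-fold threshold 1 kept member, Notch1, was lower. Subtraction of the median change of all kept entries, -0.14, moved the median of the 5 kept members to 0.42. Of the other pathway genes, 1 was higher after this subtraction, Dlk2, and with a 1.5-fold threshold 2 were higher and 8 lower. The number lower was 4 in place of 5 after the subtraction and with a pseudocount of 1, both without Maml3, and with a mean RPKM of at least 1, without Hey2. With a pseudocount of 1 the changes of Jag2, Dll1 and Hey1 were 0.45, -0.47 and -0.51. No gene under 1 RPKM in both libraries can pass 2-fold with that pseudocount, so this setting cannot decide their calls. With 0.01 the changes were 2.72, -1.40 and -1.44, past 2-fold in the same directions. By plain ratio Jag2 was 7.50 times as high in Dnmt1-/-, and Dll1 and Hey1 were 2.70-fold and 2.76-fold lower. These 3 genes stayed under 1 RPKM in both libraries, and read counts per gene are not given.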
